A study of Mus musculus with 2 samples.

Results

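Oxidative phosphorylation genes of the nucleus were read out from ribosome-bound RNA of the ventral striatum. The genes were chosen by name alone, as symbols that start with Ndufa, Ndufb, Ndufc, Ndufs or Ndufv and a digit, the Sdh genes a to d, all Uqcr genes, Cyc1, the Cox genes of subunits 4 to 8 and all Atp5 genes. Of 32531 symbols in both libraries, 85 matched, and 0 of the matches carried a pseudogene suffix. Complex I held 37 of them, complex II 4, complex III 9, complex IV 18 and complex V 17. The rule used no measured value.

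The series used translating ribosome affinity purification (TRAP), in which ribosomes that carry an EGFP tag on protein Rpl10a are pulled down from homogenised tissue with antibodies against EGFP. The mice were adult, untreated controls of the Stard5-TRAP line JX5852, whose tagged ribosomes (EGFP/Rpl10a) are driven by regulatory sequence of Stard5. Replicates 1 and 2, both made from pulled-down RNA, form the only group, so there was no condition to compare and no input library was analysed here. Nothing in the labels ties the replicates to separate animals, so SDs measure only the spread between these 2 samples, which may be technical. The p-values cover counting error only. The stated aim was to profile neurons of this region, and only 1 transgenic line was used.

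Oxidative phosphorylation is the work of protein complexes in the inner mitochondrial membrane. Complex I takes electrons from NADH and complex II from succinate, complex III passes them from ubiquinone to cytochrome c, and complex IV passes them to oxygen. Complexes I, III and IV pump protons, and complex V, the ATP synthase, makes ATP as protons flow back. Neurons draw most of their ATP from this pathway. Most subunits are encoded in the nucleus and made on cytosolic ribosomes, and a few are made inside mitochondria, where the EGFP tag on a cytosolic ribosomal protein does not reach. The 13 mitochondrially encoded subunits were not found under their usual names and are not analysed here.

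The libraries held 25830282 and 29574781 reads in genes. Levels are given as reads per 1000000 gene reads (CPM), and wherever different genes are compared, in CPM per kilobase of transcript. Detection was set at 1 CPM in each of the libraries, and 12374 genes reached it. Markers of spiny projection neurons, the main neuron type of the striatum, were high, among them Penk at 1013 ± 426 and Pde10a at 338 ± 11.9 CPM per kilobase (SD, n = 2). Astrocyte markers were present too, and their summed level was 908 CPM in replicate 1 and 3048 CPM in replicate 2. Since these are bulk samples, fewer cells of a type and less RNA per cell cannot be told apart.

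The oxidative phosphorylation genes as a set were abundant. They took 0.975% of gene reads in replicate 1 (exact Clopper-Pearson 95% interval 0.971% to 0.979%) and 0.713% in replicate 2 (0.710% to 0.716%). Of the 85 genes, 77 were detected. Their levels per kilobase placed 45 genes in the top 10% of the 11863 detected genes with a known length and 74 in the upper 50% of them. The median over all 85 genes was 58.3 CPM per kilobase, against 8.50 over all detected genes. The 8 genes below the detection limit were those of the list of tissue-restricted isoforms: Cox4i2, Cox6a2, Cox6b2, Cox7a1, Cox7b2, Cox8b, Cox8c and Ndufa4l2.

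Complex V had the largest share of the reads. Its 17 genes took 0.442% of gene reads in replicate 1 and 0.369% in replicate 2, which is 45.3% and 51.8% of the reads of the whole set. Complex I followed with 0.239% and 0.148%, spread over 37 genes. Complex IV took 0.137% and 0.0672%, complex II 0.0894% and 0.0778%, and complex III 0.0681% and 0.0510%. In replicate 1 complex IV stood above complex II, and in replicate 2 below it. The large share of complex V rested mostly on 2 genes, Atp5b and Atp5a1, which held 1951 and 915 CPM in replicate 1 and 1786 and 1002 CPM in replicate 2.

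**Figure D1:**
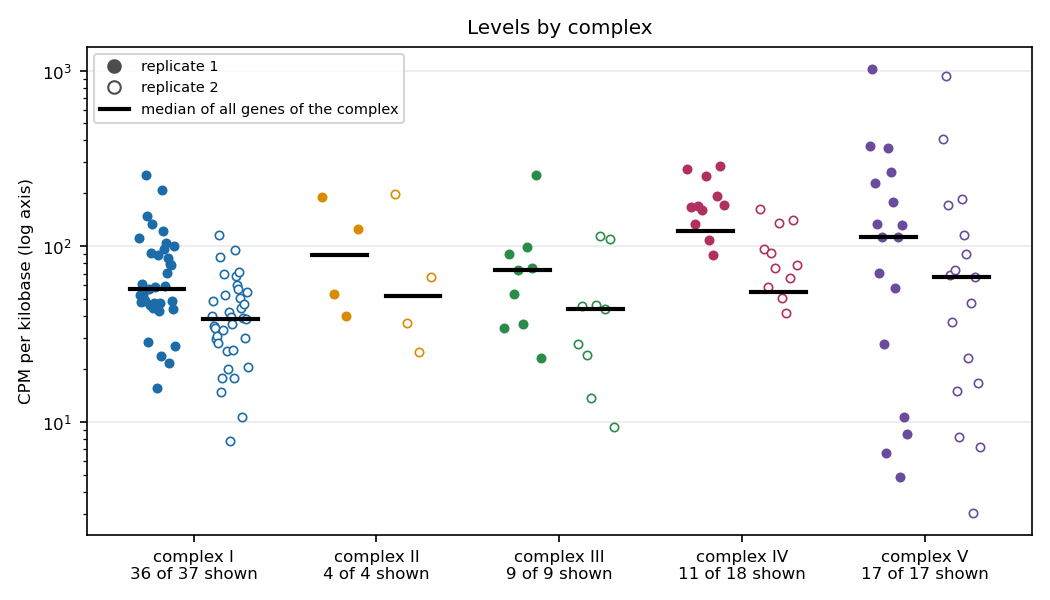
Levels of the detected genes of complexes I to V in CPM per kilobase on a log axis, with filled points for replicate 1, open points for replicate 2 and a bar for the median of all genes of the complex in that library. The medians of complexes IV and V lie above those of the others in both libraries, and the points of complex V span the widest range.

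Per kilobase, the complexes differed little beyond the spread between the libraries. The median gene of complex V stood at 113 CPM per kilobase in replicate 1 and 67.0 in replicate 2, and that of complex IV at 122 and 54.7. Complex II followed at 89.6 and 51.8. Complex III had 73.4 and 43.8, and complex I 57.2 and 38.7. Each median was lower in replicate 2, so the ranges of neighbouring complexes overlapped. In both libraries complexes IV and V came before complex II, then complex III and then complex I. The first place was held by complex IV in replicate 1 and by complex V in replicate 2. These medians include the undetected isoforms of complex IV. Without those isoforms complex IV stood at 170 in replicate 1 and 78.6 in replicate 2, and so came first in both. Over the means of both libraries the medians of all genes were 92.7 for complex V, 88.3 for IV, 70.7 for II, 47.5 for I and 43.6 for III. Here complex III came below complex I, unlike in each library. Its median gene was Uqcrb, at 73.4 in replicate 1 and 13.8 in replicate 2. Without genes whose bases also occur in near-identical copies elsewhere, complex III stood at 59.3 and complex I at 50.2. With only detected genes, complex IV came first at 130, ahead of complex V at 92.7. Genes are not replicates of a complex, so no test was made of this order. It also rests on the length given to each gene: with all annotated exons as the length the order became II, IV, V, I, III.

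The genes within a complex were more alike in some complexes than in others. The SD of the log2 level per kilobase over the detected genes was 0.53 in replicate 1 and 0.63 in replicate 2 for complex IV. For complex I it was 0.88 and 0.85, for complex III 1.02 and 1.22, and for complex II, with 4 genes, 1.05 and 1.30. Complex V was the most uneven, at 2.26 and 2.16. With the 7 undetected isoforms set aside, the 11 genes of complex IV lay between 65.2 and 219 CPM per kilobase, whereas those of complex V ran from 3.94 to 975. No genes were set aside for complex V. Its low end holds Atp5l at 3.94 and Atp5g2 at 7.43, where many bases also occur in near-identical copies elsewhere. It also holds Atp5sl at 7.90 and Atp5s at 13.6, which are not subunits of the assembled enzyme.

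**Figure D2:**
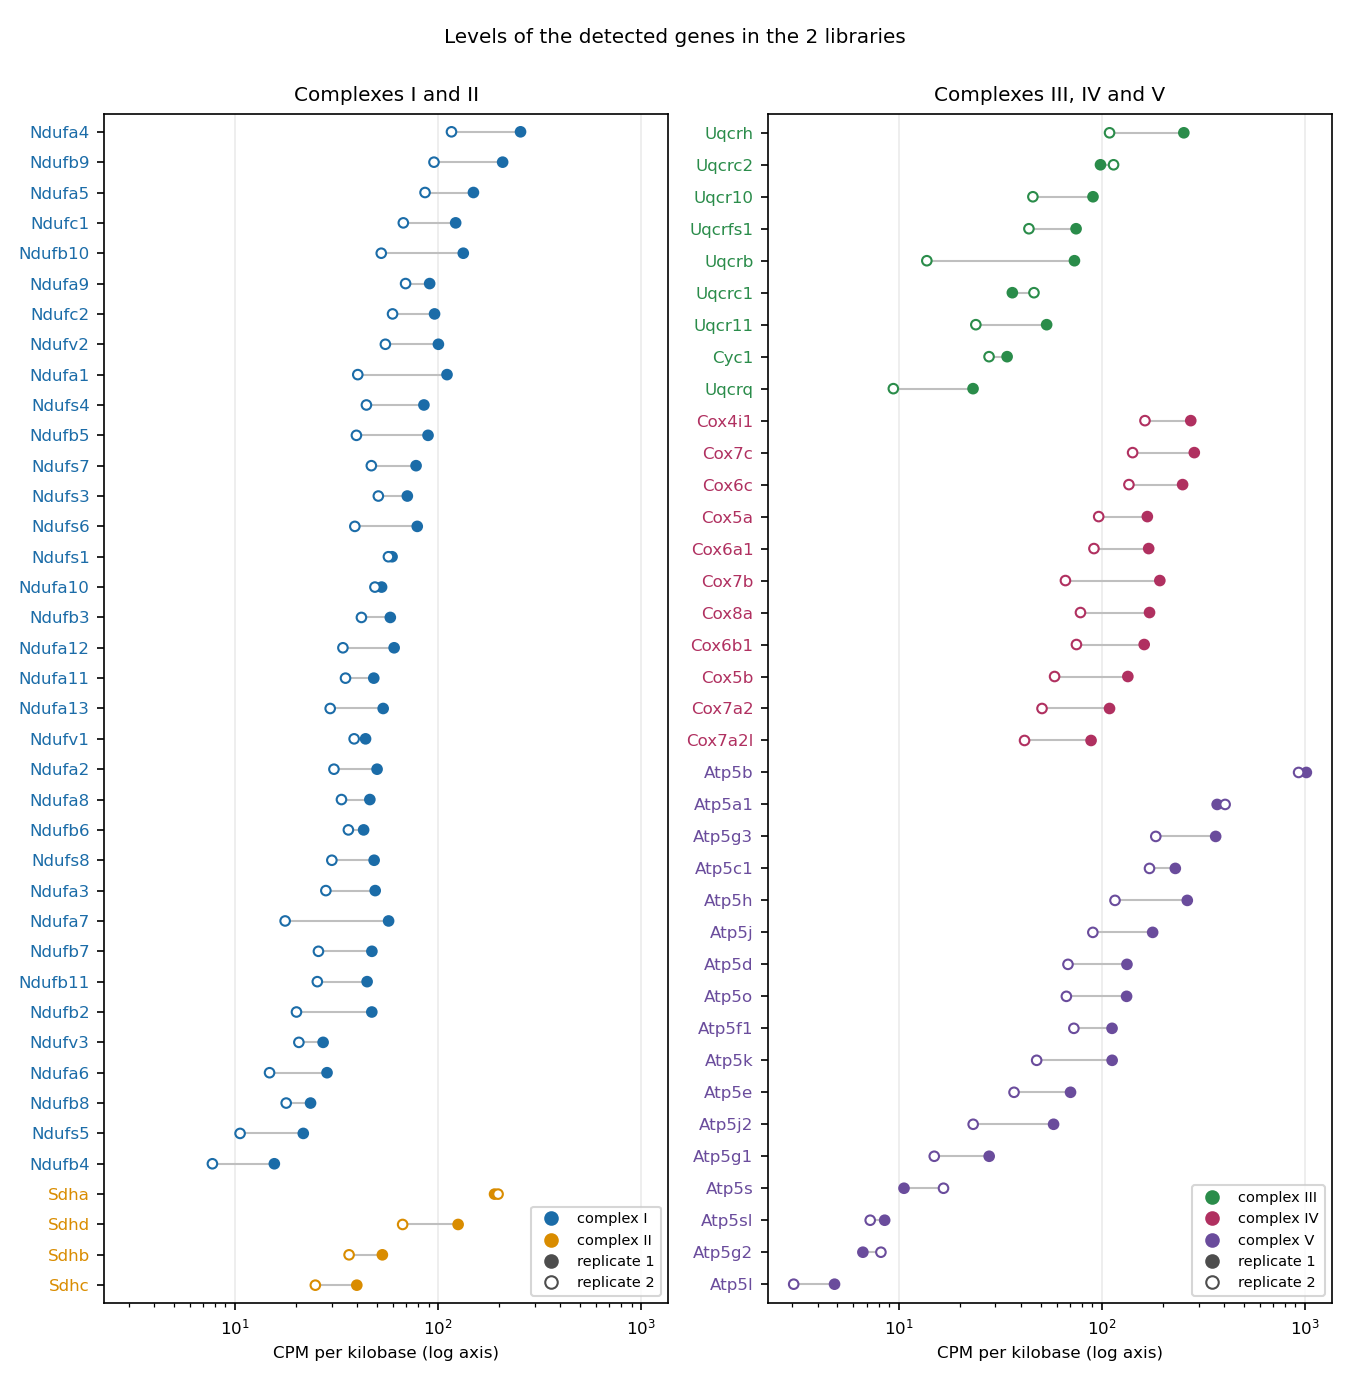
CPM per kilobase (log axis) of the detected genes, 1 of the 77 left out, with a filled point for replicate 1 and an open point for replicate 2 joined by a line, ordered within each complex by the mean. Atp5b lies highest, and the open point lies left of the filled point for most genes.

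Complex I has a core of catalytic subunits with many accessory subunits around it. The core subunits that oxidise NADH are Ndufv1, which binds NADH and flavin, and the iron-sulfur proteins Ndufv2 and Ndufs1. Ndufv1 was at 73.2 CPM in replicate 1 and 64.3 in replicate 2, Ndufv2 at 132 and 72.4, and Ndufs1 at 158 and 152. Ndufs1 was thus nearly level between the libraries and Ndufv2 was not. Per kilobase the order was Ndufv2 at 77.9 ± 32.2, Ndufs1 at 58.3 ± 1.70 and Ndufv1 at 41.4 ± 3.79 (SD, n = 2). Ndufv2 did not stand apart from Ndufs1 beyond that spread.

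The core subunits that lead electrons on to ubiquinone include Ndufs3, Ndufs7 and Ndufs8. Ndufs7, an iron-sulfur protein, had 59.2 CPM in replicate 1 and 35.7 in replicate 2. It stood at 62.6 ± 22.0 per kilobase, Ndufs3 at 60.9 ± 14.0 and Ndufs8, another iron-sulfur protein, at 39.3 ± 13.1. The values of Ndufs3 and Ndufs7 overlapped between the libraries. In the transcript of Ndufs3, 75.7% of the bases also occur in near-identical copies elsewhere. The 28 accessory subunits ran from 11.7 to 152. The median was 60.9 for the 7 core subunits and 41.7 for the accessory subunits.

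Among the other genes with complex I names, Ndufa4 was the highest at 156 CPM in replicate 1 and 71.2 in replicate 2, or 186 ± 98 per kilobase. Ndufa4 was named as a complex I subunit but is now counted with complex IV. Ndufb9, an accessory subunit of the membrane arm, had 147 and 67.4 CPM. Ndufa5 stood at 118 ± 44.7 per kilobase and Ndufc1 at 95 ± 38.7. The lowest detected gene was Ndufb4 at 15.2 and 7.54 CPM, or 11.7 ± 5.59 per kilobase. In its transcript, 40.2% of the bases also occur in near-identical copies elsewhere, where reads may not be placed uniquely.

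The remaining accessory subunits of complex I filled the range between these. In the arm that reaches into the matrix, Ndufa9, which sits near the ubiquinone site and binds NADPH, was at 132 CPM in replicate 1 and 100 in replicate 2, or 80.3 ± 15.4 per kilobase. Ndufs4, whose loss in mice gives a model of Leigh syndrome, was at 65.0 ± 28.9, the zinc protein Ndufs6 at 59.1 ± 28.4, and Ndufa12 at 47.5 ± 19.0. Ndufa13, also known as GRIM-19, was at 41.7 ± 17.2, Ndufv3 at 24.0 ± 4.63 and Ndufa6 at 21.7 ± 9.64. These genes overlapped with the core subunits in level, except for the last pair, which lay below all of the core in both libraries.

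In the membrane arm, Ndufb10 stood at 93.1 ± 57.1, Ndufc2 at 78.1 ± 25.8 and Ndufb5 at 64.6 ± 35.2 CPM per kilobase. Ndufa10 had 107 and 99.0 CPM, or 50.9 ± 2.72 per kilobase, the smallest spread among the accessory subunits named here. The subunits on the outer face with paired cysteine motifs were Ndufa8 at 39.9 ± 9.00, Ndufb7 at 36.6 ± 15.2 and Ndufs5 at 16.2 ± 7.87. Near-identical copies cover 60.8% of the transcript of Ndufs5. The 2 subunits encoded on the X chromosome were Ndufa1 at 75.7 ± 49.9 and Ndufb11 at 35.2 ± 13.7.

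Complex II is the enzyme that also works in the citric acid cycle as succinate dehydrogenase. Sdha, the flavoprotein that oxidises succinate, had 552 CPM in replicate 1 and 574 in replicate 2. It was the highest of the 4 genes per kilobase at 194 ± 5.49, and its libraries were closely matched. Sdhd, a membrane anchor, followed at 96.5 ± 41.5, and Sdhb, the iron-sulfur subunit, at 45.0 ± 11.9. Sdhc, the other anchor, was lowest at 32.4 ± 10.6 per kilobase, and did not stand apart from Sdhb beyond the spread. The Sdha gene is at chr13:74322254-74350280, minus strand, in GRCm38.

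In complex III, the hinge protein gene Uqcrh was highest at 139 CPM in replicate 1 and 59.8 in replicate 2, or 182 ± 102 per kilobase. The core proteins followed at different levels, Uqcrc2 at 107 ± 11.2 and Uqcrc1 at 41.4 ± 7.13 per kilobase. The electron-carrying subunits were the Rieske iron-sulfur protein Uqcrfs1 at 59.3 ± 21.9 and cytochrome c1, encoded by Cyc1, at 31.1 ± 4.48. Of the small subunits, Uqcr10 was at 68.2 ± 31.7, Uqcrb at 43.6 ± 42.2, Uqcr11 at 38.8 ± 20.9 and Uqcrq lowest at 16.3 ± 9.79. Uqcrc1 and Uqcrc2 were the members of this complex that were higher in replicate 2 than in replicate 1.

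Complex IV was the most even. Cox4i1, the largest of its nuclear subunits, had 207 CPM in replicate 1 and 123 in replicate 2, or 219 ± 78.6 per kilobase. The small membrane subunits Cox7c and Cox6c stood at 214 ± 102 and 193 ± 80.7. Cox5a, on the matrix side, was at 132 ± 50.3, and Cox5b, which holds zinc, at 96.6 ± 53.7. Near-identical copies cover 58.3% of the transcript of Cox7c and 45.1% of that of Cox5b. The values of Cox4i1, Cox7c and Cox6c overlapped between the libraries, and both values of Cox4i1 lay above both of Cox5b. The genes Cox6a1, Cox7b, Cox8a and Cox6b1 formed a close group at 131 ± 55.7, 130 ± 89.8, 125 ± 66.0 and 119 ± 61.4, and Cox7a2 was at 80.1 ± 41.4. The lowest detected gene was Cox7a2l at 65.2 ± 33.2, which is best known for helping complexes III and IV to join into supercomplexes.

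Complex V is built from a catalytic head, a rotating ring in the membrane and a stalk that holds the head still. In the head, Atp5b, the beta subunit that carries the catalytic sites, was the highest of all 85 genes at 975 ± 60.7 CPM per kilobase, which ranked 12 among the detected genes. Its gene is at chr10:128083273-128090391, plus strand, in GRCm38. Atp5a1, the alpha subunit, reached 388 ± 24.8 and Atp5c1, the gamma subunit of the central shaft, 201 ± 41.3. Atp5d, the delta subunit, was at 101 ± 45.9, and Atp5e, the epsilon subunit, at 53.6 ± 23.5. Each assembled enzyme holds several alpha and beta subunits and a single gamma, delta and epsilon subunit. The differences between Atp5b, Atp5a1 and Atp5c1 were each larger than the spread between the libraries, and the same holds for the step from Atp5c1 to Atp5d.

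In the stalk and membrane part, Atp5h, the d subunit, had 165 CPM in replicate 1 and 72.7 in replicate 2. Per kilobase it was at 190 ± 104, ahead of Atp5j at 134 ± 62.0, Atp5o, the subunit that confers sensitivity to oligomycin, at 99.8 ± 46.4 and Atp5f1, the b subunit, at 92.7 ± 27.9. The small membrane subunits were Atp5k at 80.2 ± 45.8, Atp5j2 at 40.6 ± 24.5 and Atp5l at 3.94 ± 1.27. Atp5l, the g subunit, was the lowest detected gene of the set, with 68 and 49 reads. Near-identical copies cover 57.4% of its transcript, and also 77.6% of that of Atp5h and 43.4% of that of Atp5f1. Atp5s and Atp5sl, which carry the name but are not subunits of the assembled enzyme, were low as well, at 13.6 ± 4.25 and 7.90 ± 0.914.

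Several subunits are encoded by a family of alternative genes, and in most families 1 gene supplied nearly all of the RNA. The c subunit, which forms the rotating ring, is made from Atp5g1, Atp5g2 and Atp5g3, which differ in the mitochondrial targeting sequence and give the same mature protein. Atp5g3 had 6757 reads in replicate 1 and 3924 in replicate 2, Atp5g1 1916 and 1177, and Atp5g2 126 and 177. Per kilobase, Atp5g3 held 90.1% ± 1.75 of the family (SD, n = 2), Atp5g1 7.11% ± 0.145 and Atp5g2 2.81% ± 1.60. This split leans on the length of Atp5g1, whose transcripts matched to RefSeq have 596 and 4715 bases. With the shortest transcript of each gene, Atp5g3 held 72.4% and Atp5g1 25.3%. Near-identical copies cover 88.2% of the transcript of Atp5g2, so its reads may be undercounted. Atp5g3 was first and Atp5g2 last under each length used.

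**Figure D3:**
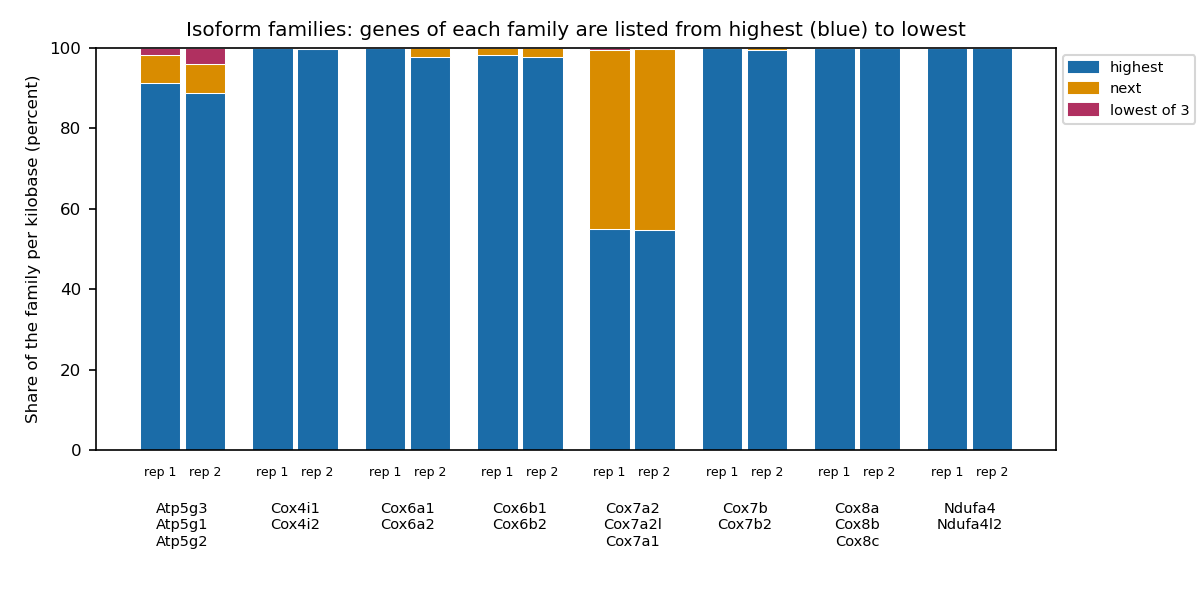
Share of each isoform family, in percent of its summed CPM per kilobase, for replicate 1 (left bar) and replicate 2 (right bar) of 8 families. One gene fills nearly the whole bar in 6 families, Atp5g3 fills 91.3% and 88.8% of the c-ring bar, and Cox7a2 and Cox7a2l divide the Cox7a bar.

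In complex IV the ubiquitous isoform took nearly the whole family. Cox4i1 held 99.9% ± 0.147 of its family per kilobase, Cox6a1 98.9% ± 1.47, Cox6b1 98% ± 0.331 and Cox7b 99.7% ± 0.319. Cox4i2, the isoform best known from lung, had 1 read in replicate 1 and 8 in replicate 2. Cox6b2 and Cox7b2, both best known from testis, had 37 and 25 reads, and 3 and 6 reads. Cox7a1, a heart and muscle isoform, had 9 and 2 reads. These levels are all under the detection limit of 1 CPM in at least 1 library.

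Cox8b and Cox8c had 0 reads in both libraries, and a count of 0 leaves room for 0.116 CPM in the first library and 0.101 CPM in the second (3 reads, counting error only). Cox8a, the ubiquitous form, had 2444 and 1279 reads. Ndufa4l2, which resembles Ndufa4, had 0 and 3 reads against 4024 and 2106 for Ndufa4. Genes with Cox7a names were the exception, since Cox7a2 held 54.9% ± 0.0974 and Cox7a2l 44.8% ± 0.281. Cox7a2l is the gene named above for its part in supercomplexes. It was listed as carrying the name without being a subunit of complex IV, so this split is not one between alternative subunits. Of the alternative isoforms, Cox7a2 had 1861 and 991 reads against 9 and 2 for Cox7a1.

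Promoters of these genes are a textbook setting for a few transcription factors: nuclear respiratory factor 1 (NRF1), the ETS family factor GABP and YY1. Their core letters were looked for on both strands in the 250 bases before each start site in the RefSeq promoter windows of GRCm38.p6, which gave a window for 69 of the 85 genes. The NRF1 core GCGCATGC was found in 8 genes (11.6%), against 2.56% of all 27025 genes with a window and 5.10% of the detected ones. The ETS core CCGGAAG was found in 12 genes (17.4%), against 7.83% and 15.5%. The YY1 core AAGATGG was found in 2 genes (2.90%), against 5.18% of all and 5.18% of the detected genes. No test was made of these shares, and a match of letters is not a measured binding site.

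The 8 genes with the NRF1 core are shown because they come from 4 of the 5 complexes and run from among the lowest levels to among the highest, Atp5l at 3.94, Atp5g2 at 7.43, Ndufa6 at 21.7, Ndufa8 at 39.9, Ndufa11 at 41.7, Sdhb at 45.0, Atp5k at 80.2 and Cox6a1 at 131 CPM per kilobase. Each line gives 30 bases, 5′ to 3′ on the strand of the gene, with the core in capitals. Where both strands hold the core, the matches overlap and the capitals run on over 10 bases. The first capital base of the core on the reverse strand lies 240 bases before the start in Atp5l, 40 in Atp5g2, 83 in Ndufa6, 8 in Ndufa8, 58 in Ndufa11, 54 in Sdhb, 48 in Atp5k and 160 in Cox6a1.
Atp5l, chr9:44920963-44920992, minus strand: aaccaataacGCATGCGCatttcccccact
Atp5g2, chr15:102671069-102671098, minus strand: gctccggccGCGCATGCGCagagccttccc
Ndufa6, chr15:82354356-82354385, minus strand: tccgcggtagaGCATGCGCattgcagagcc
Ndufa8, chr2:36049339-36049368, minus strand: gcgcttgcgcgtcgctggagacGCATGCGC
Ndufa11, chr17:56717693-56717722, plus strand: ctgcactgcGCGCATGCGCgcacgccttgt
Sdhb, chr4:140961206-140961235, plus strand: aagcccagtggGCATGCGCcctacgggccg
Atp5k, chr5:108434429-108434458, minus strand: ttcactgcgGCGCATGCGCctttctggctt
Cox6a1, chr5:115349100-115349129, minus strand: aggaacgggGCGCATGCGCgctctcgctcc

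For the ETS core, the gene with the highest level per kilobase among those that hold the letters is shown for each complex, again with the core in capitals. Atp5l and Cox6a1 hold both cores, at places that do not overlap.
Ndufs3, chr2:90904730-90904759, minus strand: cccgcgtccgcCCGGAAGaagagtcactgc
Sdhd, chr9:50603877-50603906, minus strand: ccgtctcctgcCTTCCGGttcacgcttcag
Uqcrh, chr4:116075071-116075100, minus strand: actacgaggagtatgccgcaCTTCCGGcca
Cox6a1, chr5:115348959-115348988, minus strand: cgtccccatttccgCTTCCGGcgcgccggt
Atp5h, chr11:115419939-115419968, minus strand: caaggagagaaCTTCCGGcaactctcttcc
Among complexes, the NRF1 core was found in 3 of 32 genes of complex I, 1 of 3 of complex II, 0 of 5 of complex III, 1 of 13 of complex IV and 3 of 16 of complex V. The ETS core was in 3, 1, 2, 2 and 4 genes of complexes I to V.

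Between the libraries, the set leaned to replicate 1. The reads of every detected gene were compared by an exact binomial test with TMM-scaled library sizes. Calls needed a ratio of 2-fold or more together with an adjusted p (Benjamini-Hochberg) under 0.05. That test sets 2 libraries of the same group side by side, and covers counting error only. Of the 77 detected members, 21 were called higher in replicate 1, where the share over all tested genes was 7.78%. None (0) was called higher in replicate 2, where the share over all tested genes was 9.57%. In 71 of 77 the level was lower in replicate 2, and the median log2 ratio of replicate 2 over replicate 1 was -0.84, against -0.0024 over all tested genes.

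By complex, 6 of 11 detected genes of complex IV were called higher in replicate 1, 4 of 9 of complex III and 8 of 36 of complex I. In complex V it was 3 of 17 and in complex II 0 of 4. The share over all tested genes was 7.78%. The median log2 ratio was -1.06 in complex IV, -0.96 in complex III, -0.87 in complex V, -0.78 in complex I and -0.59 in complex II. Of the 7 core subunits of complex I, with a median of -0.52, 0 were called. Of the 28 accessory subunits, with a median of -0.82, 7 were called. The median transcript length was 1312 bases for the core and 693.5 for the accessory subunits. With the trend on length removed, as described below, 0 of either were called, at medians of -0.07 and -0.15. All 11 genes of complex IV and all 36 of complex I lay below 0. No test was made of the difference between complexes.

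Uqcrb, a small subunit of complex III, differed the most. It had 39.3 CPM in replicate 1 and 7.37 in replicate 2, a 5.24-fold difference (exact binomial test, Benjamini-Hochberg adjusted p = 4.74e-143). Uqcrb is at chr13:66900617-66905378, minus strand, in GRCm38, and near-identical copies cover 62.8% of its transcript. Ndufa7, an accessory subunit, followed with 27.6 and 8.55 CPM, a 3.17-fold difference. Cox7b had 194 and 66.4 CPM, or 2.86-fold, and Ndufa1, an accessory subunit encoded on the X chromosome, 46.5 and 16.9 CPM, or 2.70-fold. Ndufb10 with 97.7 and 38.5 CPM and Atp5j2 with 55.4 and 22.2 CPM complete the 6 largest differences. Each of these 6 was called.

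Of the 77 detected members, 6 were higher in replicate 2, and none of these reached a 2-fold ratio. Atp5s led with 15.8 CPM in replicate 1 and 24.7 in replicate 2, a log2 ratio of 0.67. Uqcrc1 had 60.0 and 76.7 CPM (0.38), and Uqcrc2 187 and 217 CPM (0.24). Atp5g2 stood at 0.32, Atp5a1 at 0.16 and Sdha at 0.08. In complex V the alpha and beta subunits, Atp5a1 and Atp5b, were close to even between the libraries. Atp5j2, Atp5k and Atp5h, all called, were 2.44-fold, 2.31-fold and 2.23-fold higher in replicate 1. Atp5a1 and Atp5b have transcripts of 2471 and 1916 bases, and Atp5j2, Atp5k and Atp5h of 955, 371 and 625. With the trend on length removed, as described below, Atp5j2, Atp5k and Atp5h lay at -0.76, -0.29 and -0.44 and were not called.

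**Figure D4:**
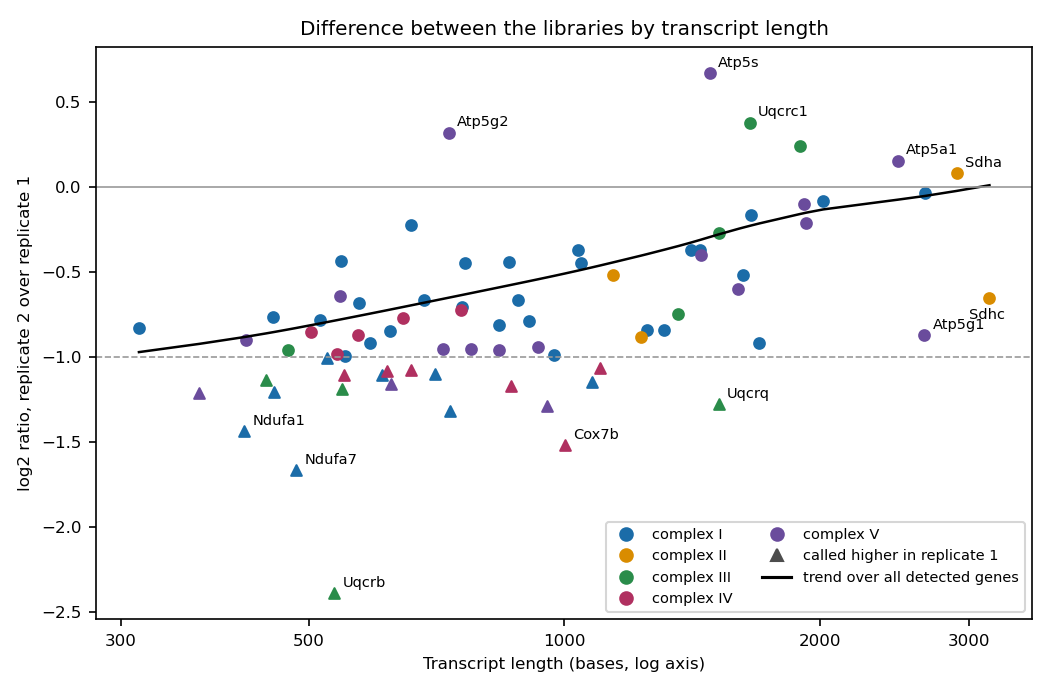
The log2 ratio of replicate 2 over replicate 1 of the 77 detected genes against transcript length in bases (log axis), coloured by complex, with triangles for genes called higher in replicate 1, the trend over all detected genes as a line and a 2-fold difference as a dashed line. Short transcripts lie lower, and Uqcrb lies farthest below the line.

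Transcript length moved with this difference. The detected members had mostly short transcripts, with a median of 758 bases over all 85 against 3096 over the detected genes, and the median log2 ratio over all detected genes was lower among shorter transcripts. Across the 77 members the log2 ratio was higher at greater log2 length (Pearson r = 0.56, Spearman rho = 0.55), and across 11863 genes r was 0.28 and rho 0.30. These are descriptions across genes, which share their libraries and are not independent. Under 600 bases the median was -0.97 over 22 members and -0.76 over 109 other genes, with 9 members called and 26.6% of the others. From 600 to 1000 bases it was -0.94 over 25 members and -0.63 over 487 others, with 8 members called and 24.8% of the others. From 1000 to 2000 bases it was -0.48 over 24 members and -0.28 over 2281 others, with 4 members called and 13.9% of the others.

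With the trend on length removed, 3 members were called higher in replicate 1, where 5.64% of all genes with a length were, and 0 higher in replicate 2, where 9.15% were. The 3 were Uqcrb at a log2 ratio of -1.60, Cox7b at -1.01 and Uqcrq at -1.0. The median over the 77 members became -0.20, with 54 below 0. For complex IV it became -0.33 with 11 of 11 genes below 0, and for complex V -0.29 with 12 of 17. For complex II it became -0.28 with 3 of 4 below 0, for complex III -0.27 with 6 of 9 and for complex I -0.11 with 22 of 36.

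Other properties of the libraries moved with the difference as well. Entries that the read counter set aside for more than 1 alignment made up 27.9% of all entries in replicate 1 and 13.6% in replicate 2. Entries in no annotated feature made up 22.8% in replicate 1 and 31.0% in replicate 2. Here all entries are those in genes plus those assigned to no gene. The sources used here do not say whether each read gave a single entry. Over all tested genes, 7.78% were called higher in replicate 1 and 9.57% higher in replicate 2. Of the 15 members with near-identical copies, 6 were called higher in replicate 1, as were 15 of the 62 detected members without such copies. Of the 8 astrocyte markers, 7 were called higher in replicate 2, and of the 8 oligodendrocyte markers 3, their summed level going from 853 to 1330 CPM. Of the 11 spiny neuron markers, 1 was called higher in replicate 1, and their summed level went from 7357 to 5530 CPM. Of 7 microglia markers 0 were called in either direction, with summed levels of 130 and 97.6 CPM. No marker of these 4 lists had 0 reads in either library. Of 8 endothelial and mural markers 4 were detected, with 3 below 0 in log2 ratio and Rgs5 above it at 0.98. Of these, only Pecam1 was called, as higher in replicate 1. The other 4 were under the detection limit in at least 1 library and were not tested. All of them had more reads in replicate 2. Pdgfrb went from 25 to 300 reads, Cldn5 from 4 to 35, Kcnj8 from 0 to 28 and Acta2 from 10 to 13. Over the 8 the summed level went from 25.9 to 38.1 CPM. Of 5 markers of GABA interneurons (Kcnc1, Lhx6, Sst, Nos1 and Pvalb), the 4 detected lay above 0 in log2 ratio with 0 called. Pvalb, under the detection limit in replicate 2, went the other way with 58 reads in replicate 1 and 15 in replicate 2. All 4 cholinergic interneuron markers lay above 0, with 1 called higher in replicate 2. The part of the markers, of the multiply aligned reads and of the entries in no feature in the result was not tested.

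Genes that assemble the complexes were mostly at lower levels than the subunits. The median level per kilobase was 11.8 for the 13 assembly factors of complex I, 5.93 for the 4 of complex II, 8.44 for the 6 of complex III and 8.63 for the 18 of complex IV. Between the libraries, where 7.78% of all tested genes were called higher in replicate 1 and 9.57% in replicate 2, 3 of 13 complex I factors were called higher in replicate 1 (Ndufaf2, Ndufaf4 and Ndufaf5), as were 2 of 4 of complex II (Sdhaf2 and Sdhaf3) and 0 of 6 of complex III. Of 16 detected complex IV factors, 3 were called higher in replicate 1 (Cox17, Cox19 and Coa3) and 1 higher in replicate 2 (Taco1). With the trend on length removed, Ndufaf4, Sdhaf2, Sdhaf3, Cox19 and Taco1 were still called, Ndufaf2, Ndufaf5, Cox17 and Coa3 were not, and Sdhaf4 and Cox20 were called higher in replicate 2. The highest of each list per kilobase were Ndufaf5 at 54.9 ± 27.3, Sdhaf4 at 15.3 ± 4.55, Ttc19 at 44.5 ± 1.72 and Cox17 at 74.1 ± 37.5. The lowest were Nubpl at 2.12 ± 0.766, Sdhaf1 at 0.770 ± 0.186, Bcs1l at 5.13 ± 0.809 and Sco2, which had 0 reads in both libraries.

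The inhibitor of complex V, Atpif1, stood apart from its list at 133 CPM in replicate 1 and 60.0 in replicate 2, or 179 ± 96.3 per kilobase, a level like that of the subunits. Atpif1 keeps the enzyme from running backwards and hydrolysing ATP. It and the head assembly factor Atpaf2, the lowest of the list at 6.59 ± 5.18 per kilobase, were called higher in replicate 1, as were 7.78% of all tested genes. With the trend on length removed, the log2 ratio of Atpif1 went from -1.13 to -0.34 and it was no longer called, while Atpaf2 was still called at -1.60. Atpaf1 and Tmem70, the other 2 of the list, were not. Cytochrome c, encoded by Cycs, was at 89.9 and 52.0 CPM, and its testis form Cyct had 0 reads in both libraries. Of the 11 regulators of mitochondrial biogenesis found, Ppargc1a, the coactivator best known for driving this programme, had 199 CPM in replicate 1 and 263 in replicate 2 and was highest at 51.8 ± 10.1 per kilobase. Polg, the mitochondrial DNA polymerase, was lowest at 0.936 ± 0.0667 per kilobase. Of these 11, 2 were called higher in replicate 2 (Pprc1 and Nrf1) and 0 higher in replicate 1, the same genes as with the trend removed. The shares over all tested genes were 9.57% and 7.78%. Of the 11 log2 ratios, 7 lay above 0.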

How the data were processed

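The authors deposited raw counts of reads per gene symbol for each library. The software and build, per the submitters' processing notes, were the aligner STAR 2.0.0e, the read counter HTSeq and the mouse assembly mm10. The sources used here give neither annotation nor strand setting, so reads of overlapping or antisense genes cannot be told apart. In 11 members, more than 10% of the exon bases overlap another gene, led by Ndufb6 (39.0%, with Smim27), Atp5o (35.6%) and Ndufa13 (30.0%, with Tssk6). The 6 lines that name no gene stayed out of all totals. CPM used all gene reads. Intervals and floors cover counting error only.

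Length was the median over GENCODE M21 transcripts matched to RefSeq, or the principal transcript where none matched. All 85 members had a length, 1 of them through a RefSeq synonym. M21 annotates GRCm38, the assembly that mm10 names. Near-identical copies were stretches of at least 75 bases at 98% identity or more in transcripts of other genes (blastn 2.17.0). They were found for 15 members, whose median was 47.5 CPM per kilobase, against 58.7 over the 70 members without them. TMM (trimmed mean of M-values) factors came from edgeR 4.0.16 and alternative size factors from DESeq2 1.42.0. Binomial tests used scipy 1.17.1. The trend on length was a lowess fit (fraction 0.3, statsmodels 0.14.6). The binomial test and its adjustment were tested on simulated data.

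The members and lists were chosen with earlier results of these data known. Named genes were, of each complex, the up to 4 highest and the lowest by mean CPM per kilobase, the catalytic subunits, all members of complexes II and III and of isoform families, the 6 largest log2 ratios in each direction, and the highest and lowest of each other list. The other subunits of complexes I, IV and V and the called assembly factors were named after their values were seen. So were the endothelial and mural markers, the highest and lowest of other lists per kilobase and the genes shown with promoter letters. A gene that this rule takes is not reported here by name, though it counts in all totals and medians.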

Additional observations from a re-analysis of the deposited data

How the results depend on the processing

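No paired analysis was possible because the series holds a single group of 2 libraries, and leaving out a library leaves no test between them. Levels rest on 2 libraries, and those of complex III ranged from 43.8 to 73.4 CPM per kilobase when either library was left out. The lengths were varied after seeing the data. With all annotated exons as the length, the median became 33.3 over all members, 29.2 for complex I and 36.2 for complex V. The share of Atp5g3 in the c-ring family was 75.6% with reads not divided by length, 72.4% with the shortest transcripts, 85.4% with all exons and 92.9% with the principal transcript. Without the trend on length, 3 members instead of 21 were called higher in replicate 1 and the median log2 ratio was -0.20. That alternative ended 18 of the calls. Library totals without a scaling factor gave 24 calls, which include the 21, and DESeq2 size factors 21. With no filter on low counts, 1 of 83 members was called higher in replicate 2, Cox6a2, where 20.3% of the 18929 genes tested were. No called ratio changed sign under the alternatives run, but without the trend on length 54 of the 77 members lay below 0 instead of 71, and those that changed sign include Ndufc1 (-0.83 to 0.14) and Atp5b (-0.10 to 0.05).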

Other observations

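Cox6a2, the isoform of subunit 6a best known from heart and muscle, had 3 reads in replicate 1 (0.116 CPM) and 41 in replicate 2 (1.39 CPM). It was the sole member called higher in replicate 2, and only when genes below 1 CPM were tested too. In that setting 20.3% of all genes tested were called higher in replicate 2. Its exons overlap those of Itgad over 10.3% of their bases. The other members below the detection limit had at most 9 reads in either library, except Cox6b2.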
